A study of Mus musculus with 6 samples.

Results

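Thyroid hormone receptors, their RXR partners and the coregulators that they recruit were followed in quiescent muscle stem cells (qMuSCs). The mice were with or without conditional deletion of Dio2, the gene of the type 2 deiodinase (D2). The receptors, partners and coregulators are 9 genes chosen by name, of the 31053 genes in the count table. Thra and Thrb encode the receptors of T3, the active thyroid hormone, and Rxra and Rxrb encode retinoid X receptors that pair with them on DNA. Ncor1 encodes a corepressor and Hdac3 the histone deacetylase that it holds. Ncoa1 and Ncoa2 encode p160 coactivators, and Med1 encodes the Mediator subunit that contacts nuclear receptors. All 9 were found in the table and all 9 passed the expression minimum.

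The T3 receptors stay on DNA with and without hormone. Without T3 they hold the Ncor1 complex, in which Hdac3 removes acetyl groups from histones, and with T3 they release it and bind p160 coactivators and Mediator instead. D2 converts the prohormone T4 to T3 inside the cell, so its loss acts on the ligand of these receptors.

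RNA was sequenced from cells sorted for nuclear GFP under Pax7, from hindlimb muscles of resting mice aged 3 to 4 months. Every mouse carried Pax7nGFP/+ and Dio2Fl/Fl, and every mouse received tamoxifen. The 3 control mice (c124, c129 and c130, called WT in the study) were Pax7+/+, while fl125, fl126 and fl128, the 3 cD2KO mice, were Pax7-CreERT2/+, in which tamoxifen lets Cre delete Dio2 in Pax7-expressing cells. Loss of Dio2 and presence of the Cre allele coincide between the groups and cannot be told apart. Each mouse gave a library of its own.

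Libraries held between 2184073 and 3897787 counts, and 3 counts correspond to 0.773 to 1.37 CPM (counts scaled to a common library size). Dio2, the deleted gene, had 21, 5 and 10 counts in the control mice and 15, 5 and 1 in the cD2KO mice, so that the groups overlapped. Scaled to library size, fl125 of the cD2KO group was the highest of the 6 mice, at 6.83 CPM, and c124 was next, at 5.41 CPM. Counts over the whole gene do not show whether its floxed part was deleted, and they do not check the labels. Pax7 was present in every library, at 213 to 434 CPM in control and 316 to 691 CPM in cD2KO mice. Summed with 9 further muscle stem cell markers, it overlapped between the groups, at 1576 to 2031 and 1755 to 2940 CPM. Of these 10 markers, Itga7, Cdh15 and Myf5 were called higher in cD2KO mice, 0 were called lower and 7 were not called. The log2 fold changes of the called markers were 0.71, 0.51 and 0.59. Spry1 and Sdc4, not called, were at -0.45 and -0.46. Markers of other cells were present too, and some moved with the groups. The summed level of 12 immune markers was 4234 to 7766 CPM in control and 215 to 2742 CPM in cD2KO mice. That of 8 mural cell markers was 5259 to 9139 and 10740 to 15579 CPM, and that of 10 endothelial markers 256.0 to 365 and 204 to 254 CPM. Summed fibroadipogenic, myofiber and Schwann cell markers overlapped between the groups. Single markers of a list differed. Of the 8 mural markers, Acta2, Myh11 and Tagln were called higher in cD2KO mice (37.5%), and 5 were not called. Of 9 endothelial markers tested, 6 were called lower (66.7%). Esam, at 145 to 148 CPM in cD2KO mice, held most of the endothelial sum there and lay above all control mice. None of these markers was at 0 in all 6 mice. Fits with the score (mean log2 CPM) of the immune, mural or endothelial markers as a covariate were run as alternatives. The summed markers of all 3 lists did not overlap between the groups, so in 6 mice such scores are hard to tell from genotype. A call kept or lost in these fits therefore does not show the part of such cells, which was not tested otherwise. In sorted bulk samples fewer cells of a type and less RNA per cell cannot be told apart.

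The receptor counts pool transcripts that encode different proteins. Thra (chr11:98740638-98769006 of mm10, plus strand) has coding transcripts of which Thra-201 and Thra-202 in GENCODE M21 share their first 1110 coding bases and then part. Thra-202, with 410 codons, reads on into the next base at 98764406 and encodes the T3-binding receptor TRα1. Thra-201, with 492 codons, continues at 98768157 and encodes TRα2, which does not bind T3. The bases on either side of that split are shown 5′ to 3′, with 30 shared coding bases in lower case and the first 30 of each transcript's own in capitals, because the gene-level counts do not separate the transcripts that they distinguish.
Thra-202: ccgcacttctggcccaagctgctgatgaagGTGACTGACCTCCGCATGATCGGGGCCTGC
Thra-201: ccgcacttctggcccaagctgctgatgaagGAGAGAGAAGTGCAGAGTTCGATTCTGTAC

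The last exon of Thra-201 also runs into Nr1d1 on the opposite strand. Over 263 bases, or 5.70% of the 4614 exonic bases of Thra, exons of both genes lie on the same stretch of DNA, and Thra-202 has 0 bases in it. Whether strand was used in counting is not given in the sources used here, so reads in this stretch are uncertain for Thra and for Nr1d1.

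Related members can also share reads where their sequences agree. The longest identical coding run of Thra and Thrb was 26 bases, in the part that encodes the ligand-binding region, and that of Rxra and Rxrb 29 bases. Ncoa1 and Ncoa2 shared at most 15 bases. Between the transcripts compared in each of the 3 pairs, 0 words of 36 coding bases were shared. The runs are shown in capitals with 10 flanking bases on each side, since they are where reads of a pair are hardest to assign. The stretches lie at chr11:98763552-98763597 (Thra), chr14:18030166-18030211 (Thrb), chr2:27759586-27759634 (Rxra) and chr17:34037429-34037477 (Rxrb) of mm10, all on the plus strand.
Thra: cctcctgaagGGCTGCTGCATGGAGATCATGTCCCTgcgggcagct
Thrb: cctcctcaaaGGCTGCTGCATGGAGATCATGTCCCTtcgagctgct
Rxra: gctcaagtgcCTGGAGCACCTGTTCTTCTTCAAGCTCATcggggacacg
Rxrb: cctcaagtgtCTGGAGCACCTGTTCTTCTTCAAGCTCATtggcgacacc

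To compare levels between genes, CPM were divided by the length of the union of each gene's exons in kilobases. In control qMuSCs Thra had the highest level of the 9 genes, at 70.3 ± 4.09 CPM per kb (SD, n = 3 mice, as for all values below), and Thrb the lowest, at 1.14 ± 0.118 CPM per kb. Ncor1 came next to Thra at 34.9 ± 1.29 CPM per kb. The retinoid X receptors followed, Rxra at 10.6 ± 1.93 and Rxrb at 8.60 ± 0.623 CPM per kb. The coactivators Ncoa1 and Med1 were at 7.17 ± 0.162 and 6.79 ± 0.985, Hdac3 at 5.53 ± 1.40 and Ncoa2 at 2.11 ± 0.163 CPM per kb.

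The ranges of the 3 control mice overlapped between neighbors in this order for Rxra and Rxrb, for Ncoa1 and Med1, and for Med1 and Hdac3, which were therefore not separated. All other neighbors were separate. The cD2KO mice gave the same order of means in 36 of 36 pairs of genes. Without division by length, 30 of the 36 pairs kept their order, and Ncor1, at 447 ± 16.5 CPM in control mice, was then above Thra, at 324 ± 18.9 CPM. The labels call the sequencing service digital RNA-seq. If its reads came only from the 3′ ends of transcripts, division by length would overcorrect, and which holds is not given in the sources used here.

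**Figure D1:**
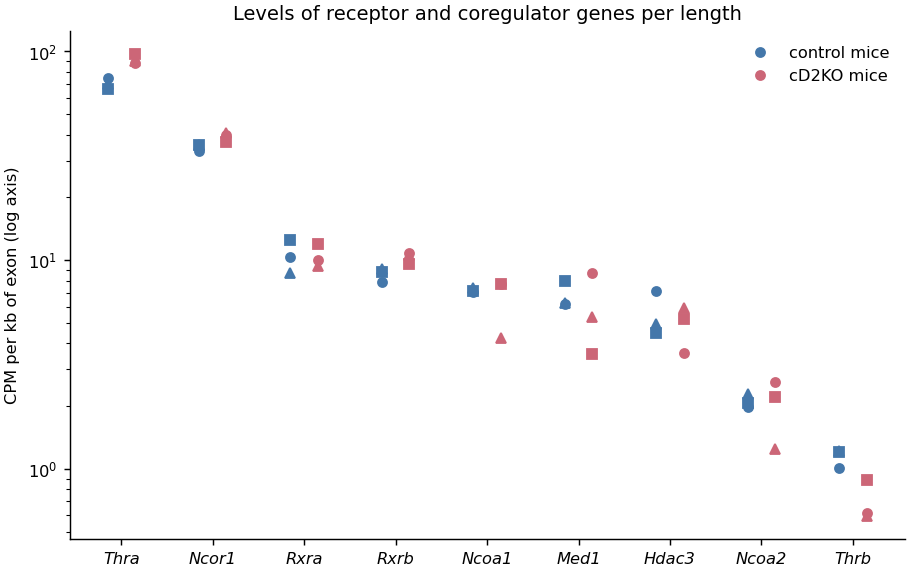
Level of each gene in CPM per kilobase of exon on a log axis, with 1 point for each of the 3 control mice (blue) and 3 cD2KO mice (red), ordered by the control mean. Thra lies above all other genes in every mouse and Thrb below them, at 1.01 to 1.22 CPM per kb in control and 0.597 to 0.883 CPM per kb in cD2KO mice.

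The next question was whether the level of any of these genes differed between cD2KO and control mice. None of the 9 genes passed the test. In edgeR's quasi-likelihood test 0 of 9 reached a nominal (not adjusted) p under 0.05, where 12.0% of all 11633 genes tested did, 5.34% higher and 6.62% lower in cD2KO mice. After adjustment 0 of 9 passed, beside 0.00860% of all genes. The Wald test of DESeq2 and limma voom each called 1 of the 9, Thra, by nominal p and 0 by adjusted p. Over all 11633 genes DESeq2 called 1308 by nominal and 276 by adjusted p, and voom 1386 and 0. Of all genes called by nominal p, 44.6% were higher in cD2KO mice, and 31.5% when counts were scaled to library totals alone. The median absolute log2 fold change was 0.16 for the 9 genes and 0.28 for all genes tested. In 4 of the 9 the values of the 3 cD2KO mice did not overlap those of the 3 control mice, against 18.1% of all genes tested. The cD2KO mice were above in 3 genes and below in 1, where 8.05% of all genes (937 of 11633) had every cD2KO mouse above and 1168 of 11633 had every one below. Those above were Thra, Rxrb and Ncor1, and the gene below was Thrb. With library totals 3 of the 9 did not overlap.

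**Figure D2:**
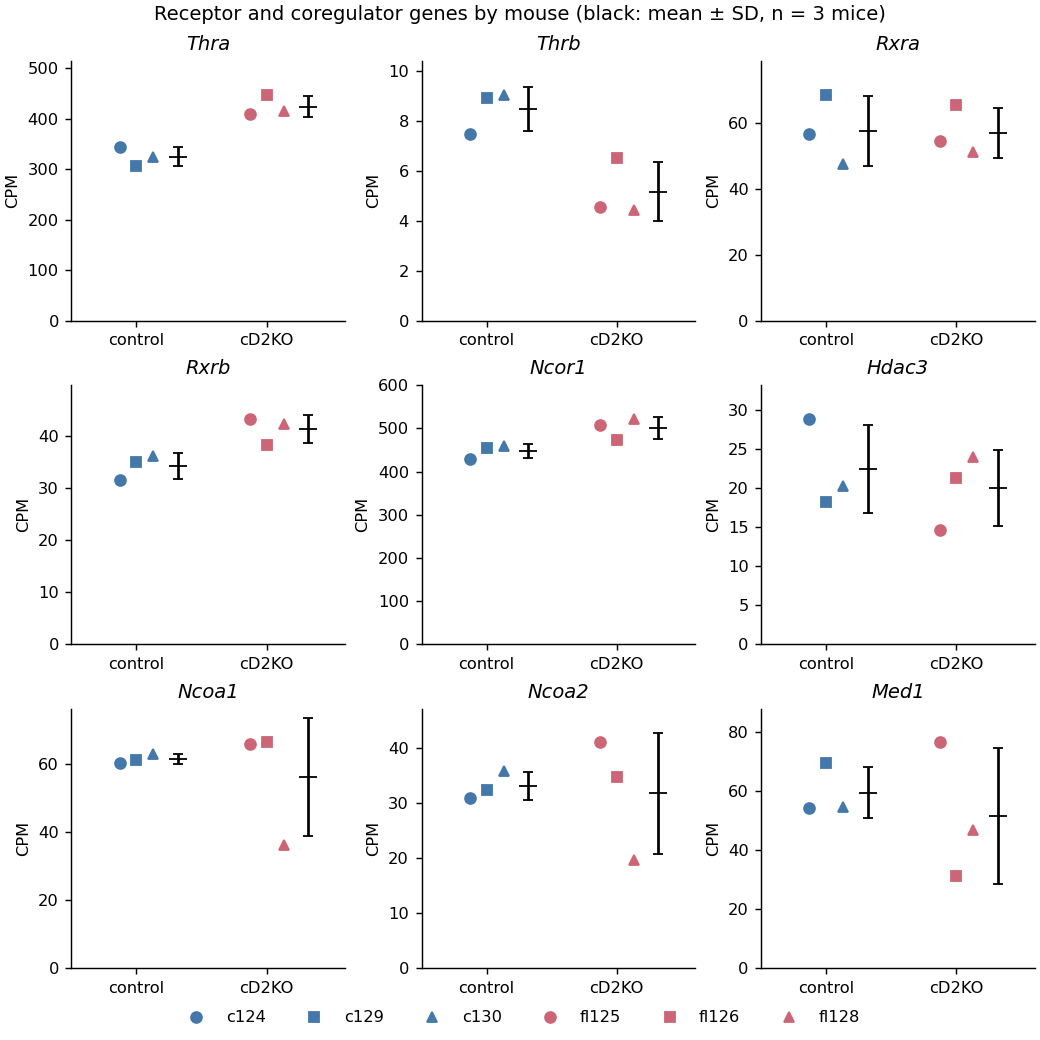
CPM of each gene in each mouse, on linear axes that start at 0, with control mice in blue and cD2KO mice in red, and the mean and SD of 3 mice in black. The groups are apart for Thra, Thrb, Rxrb and Ncor1 and overlap for the other genes, and fl128 is low for Ncoa1 and Ncoa2.

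Thra was at 343, 306 and 324 CPM in the control mice c124, c129 and c130 and at 409, 447 and 415 CPM in fl125, fl126 and fl128 of the cD2KO group. Every cD2KO mouse was above every control mouse, with the lowest cD2KO mouse at 409 CPM and the highest control mouse at 343 CPM. Group means were 324 ± 18.9 and 424 ± 20.7 CPM, a log2 fold change of 0.39 (standard error 0.18, 95% interval -0.01 to 0.78). In edgeR's test the nominal p was 0.0556 and the adjusted p 0.436, so that Thra did not pass, and the interval runs from 0.993 to 1.72 times the control level. Thra reached a nominal p under 0.05 in 4 of 18 other settings, with DESeq2, voom, DESeq2 size factors or without fl125. Its log2 fold change stayed above 0 in all 18, from 0.28 to 0.45, and its smallest adjusted p was 0.242. With the immune, mural and endothelial scores as covariates it was 0.41, 0.33 and 0.28. The last had a nominal p of 0.421 in edgeR's test and a wider 95% interval, of -0.439 to 0.995.

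Nr1d1, the gene that shares exonic bases with Thra, encodes the heme receptor REV-ERBα of the circadian clock. It was at 41.5, 84.3 and 56.7 CPM in the control mice and 61.5, 153 and 103 CPM in the cD2KO mice. Its log2 fold change was 0.81, which passed by nominal p (edgeR, adjusted p = 0.380). The groups overlapped, with fl125 within the range of the control mice. Counts over the whole gene do not show how many reads fell in the shared stretch. The share of Thra reads that came from Thra-201 or from the antisense gene was not measured.

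Thrb was at 7.47, 8.91 and 9.05 CPM in the control mice and 4.55, 6.53 and 4.42 CPM in the cD2KO mice. These are 29, 24 and 26 counts against 10, 19 and 14, and every cD2KO mouse was below every control mouse. The log2 fold change was -0.70 (standard error 0.50, 95% interval -1.77 to 0.37, adjusted p = 0.634 in edgeR's test). Thrb (chr14:17660261-18038090) is the receptor gene that T3 itself is known to regulate in some tissues. Counting error alone gives a relative SD of 19.5% at its mean count in control and 26.4% in cD2KO mice, as large as the observed 10.3% and 22.9% or larger. The interval runs from 0.293 to 1.29 times the control level, which includes no change. Its estimate stayed below 0 in all 17 other settings.

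Within each mouse, Thra had 34.3 to 46.0 times as many reads as Thrb in control and 68.4 to 93.9 times as many in cD2KO qMuSCs. All cD2KO mice were above all control mice. The mean log2 ratio, computed from CPM with a prior count of 2, was 5.15 ± 0.22 in control and 6.20 ± 0.21 in cD2KO mice, a difference of 1.05 (two-sided exact permutation test, p = 0.1, adjusted p = 0.3 over the 3 ratios compared). For 3 mice against 3 the smallest possible p is 0.1. Leaving out each mouse in turn, the difference stayed between 0.97 and 1.17.

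**Figure D3:**
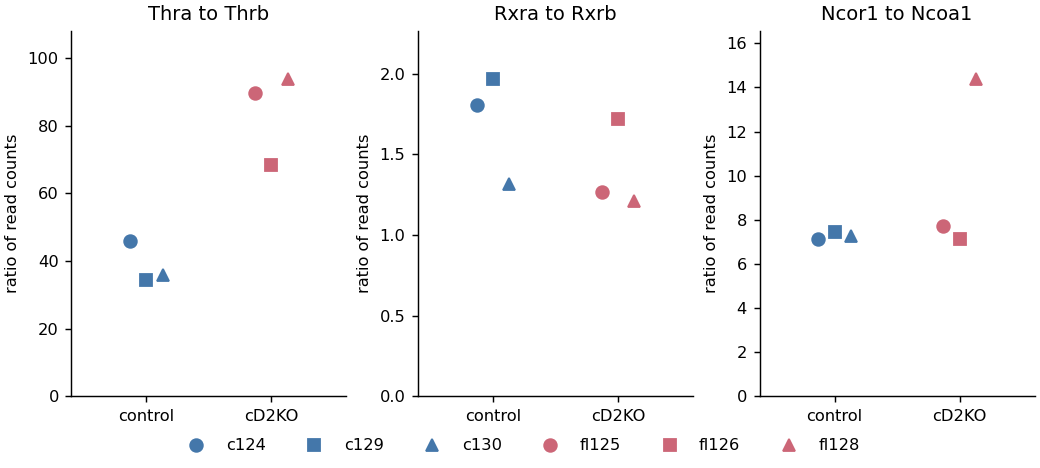
Ratio of read counts between genes of a pair within each mouse, on linear axes from 0, with control mice in blue and cD2KO mice in red. The Thra to Thrb ratio is 34.3 to 46.0 in control and 68.4 to 93.9 in cD2KO mice, the Rxra to Rxrb ratio overlaps, and the Ncor1 to Ncoa1 ratio is 7.12 and 7.71 in fl126 and fl125 and 14.4 in fl128, beside 7.11 to 7.43 in control mice.

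Of the heterodimer partners, Rxra was at 56.7, 68.7 and 47.7 CPM in the control mice and 54.6, 65.7 and 51.2 CPM in the cD2KO mice. The groups overlapped, and the log2 fold change was -0.01 (95% interval -0.49 to 0.47, adjusted p = 0.989 in edgeR's test). The interval runs from 0.711 to 1.38 times the control level, and the sign of so small an estimate turned in 8 of 18 other settings. Rxrb was at 31.4, 34.9 and 36.2 CPM in the control mice and 43.3, 38.2 and 42.3 CPM in the cD2KO mice. Its groups did not overlap, and the log2 fold change was 0.27 (standard error 0.23, 95% interval -0.23 to 0.78, adjusted p = 0.718). Neither Rxra (chr2:27676440-27762957) nor Rxrb (chr17:34031812-34038399) overlaps another gene of the annotation.

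The read ratio of Rxra to Rxrb was 1.32 to 1.97 in control and 1.21 to 1.72 in cD2KO mice, which overlapped. Its log2 difference was -0.27 (two-sided exact permutation test, p = 0.2, adjusted p = 0.3). The third retinoid X receptor, Rxrg, was at 16.8 ± 2.46 and 15.3 ± 2.00 CPM, with a log2 fold change of -0.14 (adjusted p = 0.921 in edgeR's test).

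On the corepressor side, Ncor1 had the most reads of the 9 genes. It was at 428, 455 and 459 CPM in the control mice and 509, 473 and 523 CPM in the cD2KO mice, without overlap. Its log2 fold change was 0.16 (standard error 0.18, 95% interval -0.23 to 0.56, adjusted p = 0.790 in edgeR's test), an interval of 0.852 to 1.47 times the control level. Ncor1 (chr11:62316426-62458541) shares 82 exonic bases with Pigl and 1 with Ttc19, each on the opposite strand, which is 0.640% and 0.0100% of its exonic bases. Pigl had 69 and Ttc19 556 counts in all mice together.

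Hdac3 was at 28.8, 18.2 and 20.2 CPM in the control mice and 14.6, 21.3 and 24.0 CPM in the cD2KO mice. The groups overlapped, with c124 highest and fl125 lowest, and the log2 fold change was -0.16 (standard error 0.32, 95% interval -0.85 to 0.52, adjusted p = 0.898 in edgeR's test). Without c124 or without fl125 its direction turned, to 0.06 and 0.05. Hdac3 lies at chr18:37935844-37955016.

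The p160 coactivator genes Ncoa1 and Ncoa2 were steady in 5 of the 6 mice and low in fl128. Ncoa3, of the same family, was at 33.2 CPM in fl128, within the 31.4 to 39.3 CPM of the control mice. Ncoa1 was at 60.3, 61.3 and 63.0 CPM in the control mice, 66.0 and 66.4 CPM in fl125 and fl126, and 36.3 CPM in fl128. Ncoa2 was at 30.9, 32.3 and 35.9 CPM in the control mice, 41.0 and 34.7 CPM in fl125 and fl126, and 19.6 CPM in fl128. In both genes fl128 was the lowest of the 6 mice, with 115 and 62 counts, and the other 2 cD2KO mice were within or above the range of the control mice.

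The spread among cD2KO mice was accordingly wide, with a coefficient of variation of 30.7% for Ncoa1 and 34.7% for Ncoa2, against 2.26% and 7.73% in control mice. Counting error alone gives 8.14% and 10.9% in cD2KO mice. Log2 fold changes were -0.13 for Ncoa1 (95% interval -0.67 to 0.40, adjusted p = 0.893 in edgeR's test) and -0.06 for Ncoa2 (95% interval -0.70 to 0.57, adjusted p = 0.962). Without fl128 they were 0.11 and 0.20. With the endothelial score as a covariate they were -0.72 and -0.62, and with the immune score -0.40 and -0.49, none of which passed by nominal p. In fl128 the mural markers summed to 15579 CPM and the myofiber markers to 6348 CPM, each the highest of the 6 mice. Single markers differed. Acta2 and Myh11, at 7938 and 6127 CPM, held most of that mural sum. Rgs5, Kcnj8 and Abcc9, at 844, 84.6 and 107 CPM, were lowest in fl128. The myofiber markers Myh4 and Myh1 were not highest there. The part of mural cells and myofibers in the low coactivator counts was not tested. Ncoa1 (chr12:4247362-4477182) and Ncoa2 (chr1:13139105-13374083) are both on the minus strand.

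Med1 varied most among the cD2KO mice. It was at 54.3, 69.4 and 54.6 CPM in the control mice and 76.5, 31.3 and 46.7 CPM in the cD2KO mice, so that fl125 was the highest of all 6 mice and fl126 the lowest. The coefficient of variation was 44.6% in cD2KO and 14.5% in control mice, against 8.59% and 7.35% from counting error alone. Its log2 fold change was -0.21 (standard error 0.29, 95% interval -0.84 to 0.41, adjusted p = 0.845 in edgeR's test). Without fl125 it was -0.56 (called by nominal p, adjusted p = 0.298 in edgeR's test) and without fl126 it was 0.05, so that its direction turned when that 1 library was left out. With the immune score as a covariate it was -0.86 (called by nominal p, adjusted p = 0.268 in edgeR's test), and fl125, the highest in Med1, had the lowest summed immune markers, at 215 CPM. Med1 lies at chr11:98152154-98193293.

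The ratio of Ncor1 to Ncoa1 reads, corepressor to coactivator, was 7.11 to 7.43 in the control mice and 7.71, 7.12 and 14.4 in fl125, fl126 and fl128. The groups overlapped and the log2 difference was 0.34 (two-sided exact permutation test, p = 0.3, adjusted p = 0.3). Without fl128 it was 0.03.

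**Figure D4:**
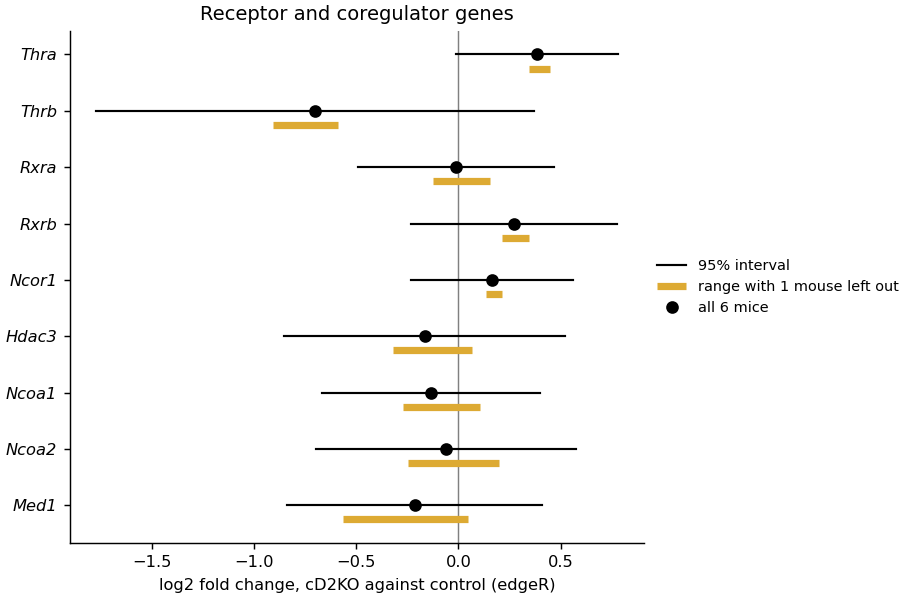
Log2 fold change of each gene in cD2KO against control from edgeR (points) with its 95% interval (black) and the range of the estimate when each mouse is left out in turn (yellow). Every interval includes 0, and the left-out range stays on the side of the estimate for Thra, Thrb, Rxrb and Ncor1.

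The other genes of the pathway were read from 5 lists written by hand, which hold 76 genes. Of the 68 tested, 6 were higher and 3 lower in cD2KO qMuSCs by nominal p in edgeR's test, which is 13.2% against the 12.0% of all genes, and 0 passed adjustment in that fit. Without c129 or without fl128 the count was 4, and without c130 or without fl126 it was 5. In the corepressor list 1 of 11 genes passed, with a median log2 fold change of 0.03 against -0.02 for all genes. It was Nrip1, a ligand-dependent corepressor, which fell from 137 ± 14.6 to 99.8 ± 18.9 CPM (log2 fold change -0.46, adjusted p = 0.395 in edgeR's test). Nrip1 lost its call with DESeq2, without a minimum on counts, or without c124, c130, fl126 or fl128. It kept its call with the immune, endothelial or mural score as a covariate. Hr, a corepressor that T3 induces in brain, was at 2.80 ± 1.32 and 6.30 ± 3.22 CPM (log2 fold change 1.11, adjusted p = 0.541).

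Among the other coactivators 1 of 10 passed, with a median of -0.06. This was Prmt1, an arginine methyltransferase, which rose from 84.9 ± 14.3 to 122 ± 37.4 CPM (log2 fold change 0.52, adjusted p = 0.413 in edgeR's test). It was 165 CPM in fl125 and 97.0 and 104 CPM in the other cD2KO mice, against 96.8 CPM in the highest control mouse, and its log2 fold change was -0.05 with the immune score as a covariate, and 0.27 and 0.24 with the endothelial and mural scores, where it did not pass. The third p160 gene, Ncoa3, was at 34.2 ± 4.43 and 34.2 ± 1.38 CPM, and the acetyltransferase gene Crebbp at 298 ± 75.3 and 281 ± 31.6 CPM.

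Of the 31 Mediator genes tested, apart from Med1, 3 were higher and 2 lower, with a median of -0.03. Med29 rose from 9.19 ± 4.09 to 18.6 ± 1.12 CPM (adjusted p = 0.325 in edgeR's test), and Med22 and Med25 rose by log2 fold changes of 0.74 and 0.52 (adjusted p = 0.359 and 0.316). Med25, whose product contacts the retinoic acid receptor, was at 97.1, 71.7 and 94.0 CPM in the control mice and 131, 122 and 123 CPM in the cD2KO mice, without overlap. Cdk8, a kinase of the Mediator kinase module, and Med19 fell, with log2 fold changes of -1.25 and -0.57 (adjusted p = 0.338 and 0.395). Cdk8 overlapped between the groups, with fl125 at 11.8 CPM and c124 at 10.6 CPM. Med25, Med29 and Med19 did not pass by nominal p with the immune, endothelial or mural score as a covariate, nor did Cdk8 with the endothelial or mural score. Med22 passed with each of the 3. It overlapped between the groups, with fl125 at 23.2 CPM and c130 at 24.4 CPM, and lost its call without c124, c129, fl126 or fl128. As the scores go with genotype, these outcomes do not show the part of other cells. With the score covariates the log2 fold change of Med25 was 0.34 to 0.39 and that of Med29 was 0.57 to 0.93.

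Of Rxrg and further partners of retinoid X receptors, 8 of 13 genes were tested and 1 passed. Nr1h2, which encodes the oxysterol receptor LXRβ, was at 23.0 to 23.7 CPM in control mice and rose to 24.6, 44.7 and 38.8 CPM in the cD2KO mice (log2 fold change 0.63, adjusted p = 0.401 in edgeR's test), with fl125 close to the control mice. It did not pass with the endothelial or mural score as a covariate, at 0.70 and 0.74. The list had a median log2 fold change of 0.11. Among T3 response genes 1 of 8 tested passed, with a median of 0.11. Slc2a4, which encodes the glucose transporter GLUT4, was at 112 to 126 CPM in the control mice and rose to 168, 179 and 290 CPM in the cD2KO mice (log2 fold change 0.82, adjusted p = 0.146 in edgeR's test), and it passed by nominal p in all 18 other settings. Its adjusted p was under 0.05 in 4 of them, at 0.0465 with DESeq2, and in edgeR at 0.00971 without a minimum on counts, 0.0356 with the immune score and 0.0267 without fl125. It is also a gene of myofibers, whose summed markers were highest in the same mouse, fl128, and their part was not tested. Klf9, a T3 target in many tissues, was at 503 ± 40.4 and 474 ± 65.2 CPM.

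**Figure D5:**
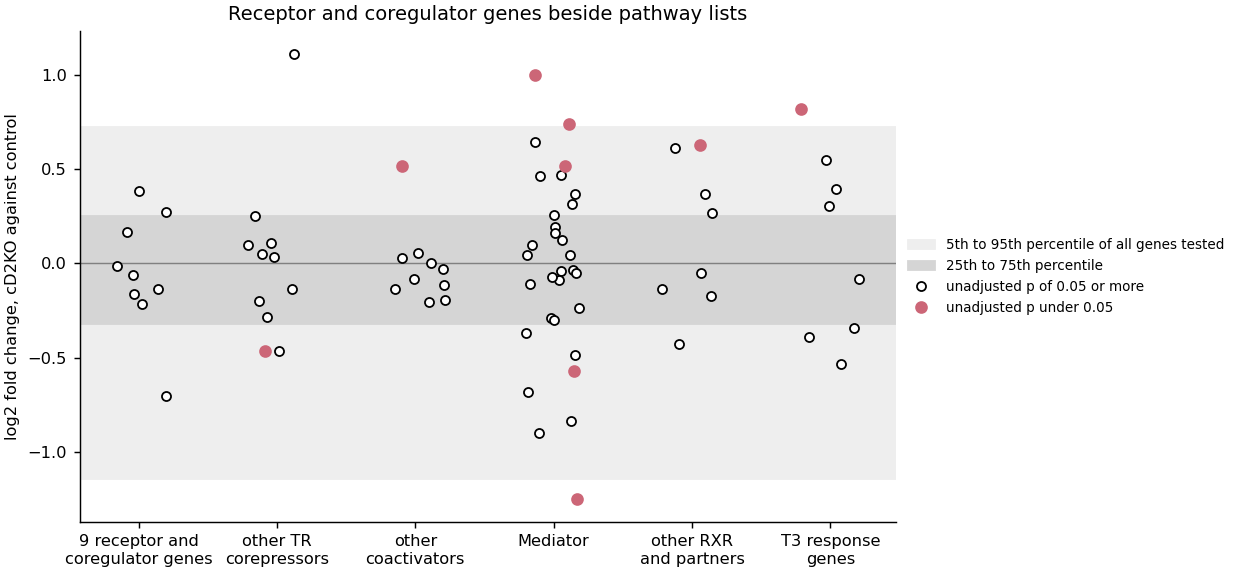
Log2 fold change of each tested gene in cD2KO against control for the 9 receptor and coregulator genes and the 5 pathway lists, with the 5th to 95th and 25th to 75th percentiles of all 11633 genes tested as gray bands. Filled points passed by nominal p in edgeR's test, 9 of the 68 list genes and 0 of the 9 receptor and coregulator genes.

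Genes with patterns most like those of the receptors were taken as those with the smallest root mean square difference of mean-centered log2 CPM over the 6 mice, among 10926 genes with a mean of at least 5 CPM. For Thra they were Foxj3, 3222401L13Rik and Mdh2, with differences of 0.06, 0.06 and 0.06 on the log2 scale, where the median over all these genes was 0.40. For Thrb they were Top2a, Mrps18c and Mme, with 0.06, 0.08 and 0.09 against a median of 0.51. These matches over 6 mice describe these libraries.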

How the data were processed

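The authors extracted RNA of sorted qMuSCs (RNeasy Mini Kit), a library for each of 3 control and 3 cD2KO mice. They aligned reads to mm10 with STAR (2.6.0a in the submitters' processing notes, which also name HTSeq 0.9.1 and bcl2fastq) and deposited raw counts per gene without normalization. Annotation, strand setting and duplicate handling are not given in the sources used here. GENCODE M21, which is on mm10, held 31011 of the 31053 identifiers and gave gene names, coordinates and, with its genome, all sequences shown.

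Kept were 11633 genes whose DESeq2-normalized counts averaged above 10. After TMM scaling they entered the quasi-likelihood test of edgeR 4.0.16 (robust, 6 mice, no covariate) in R 4.3.3, with Benjamini-Hochberg adjustment over all of them. A nominal p under 0.05 was the call, as in the study. Intervals are 95%. CPM use the TMM-scaled totals of the tested genes, and log2 CPM a prior count of 2. SDs are between mice, and counting errors assume independent reads. The fits were first tested on simulated data. No 2 libraries agreed within sampling noise (lowest chi-square per degree of freedom 8.69).

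The text names the 9 genes, Dio2, Pax7, genes that overlap a member, list genes called by nominal p (up to 4 per list and direction), and the 3 genes most like Thra and Thrb. Of the overlapping genes, those without counts or exonic overlap are left unnamed. Hr, Ncoa3, Crebbp, Rxrg, Klf9 and the single cell type markers other than Pax7 were picked after their values were seen. The members and lists were chosen with earlier results of these data known. Alternatives were DESeq2 1.42.0 (Wald test), voom in limma 3.58.1, other scalings, minimums and lengths, non-robust estimation, marker scores as covariates and leaving out each mouse. Library totals, and other scalings for the count of genes without overlap, were chosen after seeing the data.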

Additional observations from a re-analysis of the deposited data

How the results depend on the processing

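No paired analysis was possible because the mouse names share no number between the groups and the labels give no batch.

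Over 18 settings per gene (17 for Thrb, which is under a minimum mean of 50), Thra, Thrb, Rxrb and Ncor1 kept their direction. The count of the 9 genes called by nominal p was 1 with DESeq2, voom, DESeq2 size factors or the immune score, 0 in the other settings with all mice, and 0 to 2 with each mouse left out (2, Thra and Med1, without fl125). Thra passed by nominal p at a log2 fold change of 0.41 with DESeq2 (adjusted p = 0.376), 0.39 with voom (adjusted p = 0.403) and 0.41 with DESeq2 size factors in edgeR (adjusted p = 0.405), and was at 0.34 to 0.45 with mice left out. Med1 was at -0.86 with the immune score and from -0.56 to 0.046 with mice left out.

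Rxra turned to 0.0078 with DESeq2, 0.0078 with its size factors, 0.023 without a minimum on counts and 0.10 with the immune or the mural score, and was at -0.12 to 0.15 with mice left out. Hdac3 turned to 0.10 with the immune score and was at -0.32 to 0.064, Ncoa1 at -0.27 to 0.11 and Ncoa2 at -0.25 to 0.20 with mice left out. Ncoa1 was at -0.72 with the endothelial and -0.40 with the immune score, and Ncoa2 at -0.62 and -0.49. Prmt1 turned to -0.051 with the immune score. The cause was not tested. The called pathway genes, Prmt1 included, lost their call without a turn in 55 cases, and Slc2a4 in 0.

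Over all genes the 1391 calls became 659 with the endothelial score, 732 with the mural score, 1 after adjustment (0 to 510 over the settings), and 915 (without c129) to 1800 (without fl125) with mice left out. The share higher in cD2KO was 44.6%, 58.2% with the immune score and 64.2% with the endothelial score. The 9 called pathway genes became 4 to 13 with DESeq2, its size factors, library totals or a mouse left out, the only settings in which they were counted. Genes without overlap numbered 3 to 5 of 9.

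Of the 9 genes Thrb, with 10 to 29 counts in a mouse, had the largest counting error, and 3 mice against 3 cannot give an exact permutation p under 0.1. The p-values of edgeR, DESeq2 and voom rest on a spread between mice that is moderated across genes, not on each gene's spread alone.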
